A study of Rattus norvegicus with 2 samples.

Results

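The adult hemoglobin genes and Alas2 were followed in single-cell RNA sequencing (scRNA-seq) libraries of skeletal muscle from 1 rat-mouse chimera and 1 SD (Sprague-Dawley) rat. They were chosen by gene name, from 7 listed names (Hba-a1, Hba-a2, Hbb, Hbb-b1, Hbb-bs, Hbb-bt and Alas2). Of the 7 names, 4 were rat rows of both libraries (Hba-a2, Hbb-b1, Hbb-bs and Alas2), and 5 were mouse rows of the chimera library (Hba-a1, Hba-a2, Hbb-bs, Hbb-bt and Alas2), of 23373 rows in the SD rat file and 49280 in the chimera file. Hbb was a row of neither species. The chimera was an SD rat that had been injected at the morula stage with mouse induced pluripotent stem cells (iPSCs) of the genotype Dmd mdx; Pax7-nGFP, in which the dystrophin gene had been edited, so its tissues could hold cells of both species. It was an adult and 1 of several such chimeras. The SD rat had no injected cells. Muscle was collected from the whole body, digested with collagenase, passed through ACK buffer, which lyses red blood cells, and sorted for live cells with Calcein Violet, so the red cells described here are those that were still present after lysis and sorting.

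Hemoglobin is a tetramer of alpha and beta globin chains around heme, and red cells need the chains in about equal amounts. Alas2 is the erythroid form of the first enzyme of heme synthesis. Mammalian red cells lose their nucleus, and the youngest of them in blood, the reticulocytes, still hold globin and Alas2 mRNA. Globin mRNA that leaks from broken red cells is also a common part of the free RNA that enters every droplet of a scRNA-seq run, so a low globin count in another cell type is expected without expression there.

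The upstream sequences of the rat genes are shown first, because the results turn on how far the alpha gene, the beta genes and Alas2 were seen together. They are RefSeq sequences of build GRCr8, from 250 bases before to 50 bases after the start of each gene, and all 4 rat rows were matched by symbol. The counts were made on another build, so whether a row and a RefSeq gene of the same symbol are the same gene copy was not checked. Capitals mark matches on either strand to the TATA box letters TATAAA, the box named for its letters CCAAT, the motif CACCC that erythroid factors of the KLF family can bind and the motif GATAA of the GATA factors, and no matches overlapped in these windows. Hba-a2 (alpha chain) lies at chr10:15829089-15829388 on the minus strand, Hbb-b1 (beta chain) at chr1:167643471-167643770 on the minus strand, Hbb-bs (beta chain) at chr1:167631581-167631880 on the minus strand and Alas2 at chrX:22895200-22895499 on the plus strand.
Hba-a2: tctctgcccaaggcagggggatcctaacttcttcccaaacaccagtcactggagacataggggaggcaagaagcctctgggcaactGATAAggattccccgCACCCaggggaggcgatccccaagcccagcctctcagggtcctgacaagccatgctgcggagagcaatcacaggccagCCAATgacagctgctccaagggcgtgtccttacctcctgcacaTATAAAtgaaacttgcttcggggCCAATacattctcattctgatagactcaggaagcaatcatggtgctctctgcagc
Hbb-b1: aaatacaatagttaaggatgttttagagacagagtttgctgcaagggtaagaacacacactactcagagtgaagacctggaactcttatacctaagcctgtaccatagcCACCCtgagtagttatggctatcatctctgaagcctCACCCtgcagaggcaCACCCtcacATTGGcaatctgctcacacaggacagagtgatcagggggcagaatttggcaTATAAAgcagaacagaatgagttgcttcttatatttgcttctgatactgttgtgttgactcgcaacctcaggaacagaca
Hbb-bs: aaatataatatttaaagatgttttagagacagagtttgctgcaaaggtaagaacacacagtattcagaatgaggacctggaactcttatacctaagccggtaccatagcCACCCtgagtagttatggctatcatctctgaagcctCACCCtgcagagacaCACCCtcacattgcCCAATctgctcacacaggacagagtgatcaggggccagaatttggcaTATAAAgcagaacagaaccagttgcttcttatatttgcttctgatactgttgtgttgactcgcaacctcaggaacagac
Alas2: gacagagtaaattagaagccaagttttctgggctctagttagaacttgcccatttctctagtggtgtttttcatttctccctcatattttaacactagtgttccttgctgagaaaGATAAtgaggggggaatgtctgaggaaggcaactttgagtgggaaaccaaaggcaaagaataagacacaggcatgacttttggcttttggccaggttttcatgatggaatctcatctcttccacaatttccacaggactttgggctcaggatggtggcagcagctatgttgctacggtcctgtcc
TATAAA began 28 bases before the start in Hba-a2, 30 in Hbb-b1 and 29 in Hbb-bs, and 14.2% of all 33469 promoters of the same length held it. CCAAT was found in the 3 globin windows (37.5% of all promoters), as was CACCC (54.9%). GATAA was found once in Hba-a2, 164 bases before the start, and once in Alas2, 135 bases before it (26.5% of all promoters). Alas2 held none of the other 3 motifs in this window.

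The SD rat library held 10117 barcodes with 70957559 unique molecular identifiers (UMIs, each counted as 1 captured transcript), and the chimera library 13299 barcodes with 118872850 UMIs. Each group had 1 library, so nothing below has a replicate check or a p-value. Intervals are exact 95% intervals (Clopper-Pearson for shares, Poisson for counts) and cover counting error only. A barcode was called erythroid when at least 20% of its UMIs lay on the adult globin rows of either species, and the globin level of these barcodes therefore comes from the rule itself. A chimera barcode was called rat with at most 20% of its UMIs on mouse rows, mouse with at least 80%, and mixed in between. The libraries shared 43 barcode sequences, none of them erythroid.

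Globin took 238108 UMIs of the SD rat library (0.336%) and 629033 of the chimera library (0.529%). Erythroid barcodes held 79.5% of these globin UMIs in the SD rat and 84.5% in the chimera. In the SD rat 67 of 10117 barcodes were erythroid (0.662%, 0.514 to 0.840), and in the chimera 95 of 13299 (0.714%, 0.578 to 0.873), so the shares differed by less than their counting error. Close to the limit, the highest barcode outside had 19.2% globin and the lowest inside 20.2% in the SD rat, against 19.2% and 20.6% in the chimera. Between 10% and 20% globin lay 14 further SD rat barcodes and 17 further chimera barcodes, so the limit does not fall in an empty gap. In the median erythroid barcode 52.3% of UMIs were globin in the SD rat and 65.4% in the chimera, and the highest barcodes reached 94.7% and 94.1%. Of the erythroid barcodes, 57 of 67 and 77 of 95 passed the filters used for the other cells, and most of those that failed had fewer than 200 genes.

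**Figure D1:**
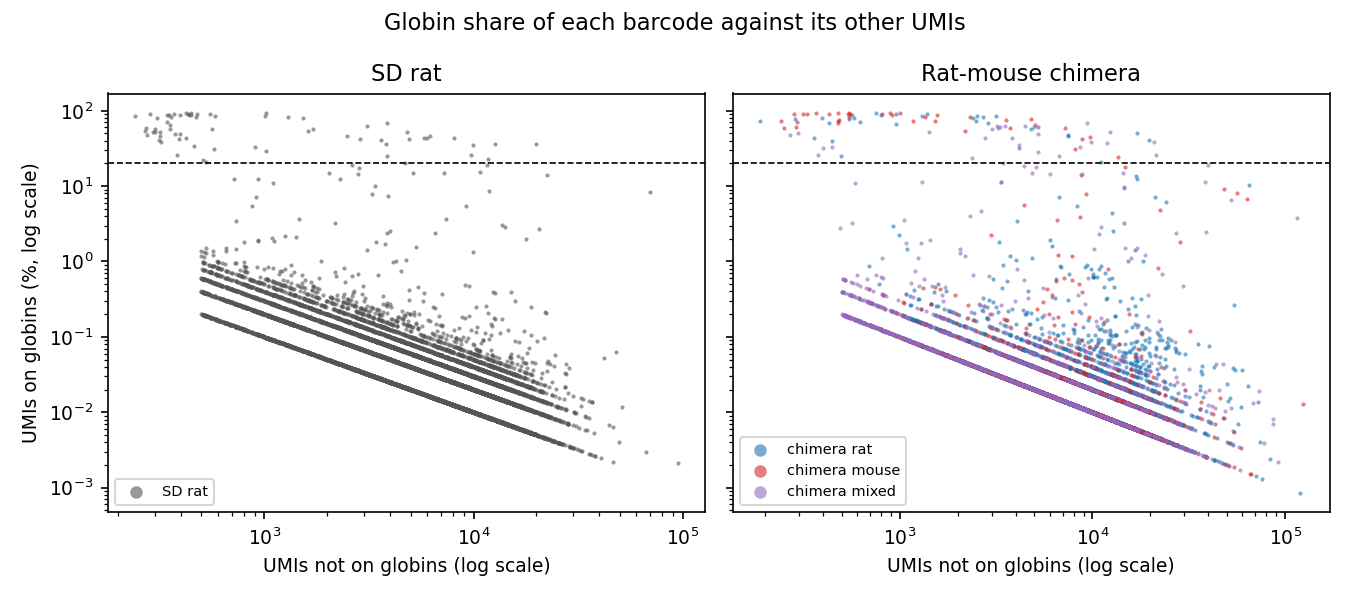
Each point is 1 barcode with at least 1 globin UMI, placed by its UMIs on other genes (x axis, log scale) and the share of its UMIs on globins (y axis, percent, log scale), with the SD rat on the left and the chimera on the right. The dashed line is the 20% limit, with 67 SD rat and 95 chimera barcodes above it, and the slanted bands below are barcodes with the same small number of globin UMIs.

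Small and large erythroid barcodes differed in content, and they were split at 500 genes, a limit chosen after the values were seen. Below 500 genes were 43 of 67 SD rat and 44 of 95 chimera erythroid barcodes, with medians of 382 and 479.5 UMIs outside globin. From 500 genes were 24 and 51 barcodes, with medians of 4276.5 and 4464 UMIs outside globin. Markers of endothelial cells (ECs), which line the blood vessels, differed between them. At least 3 of the EC markers were detected in 20 of 24 SD rat barcodes (83.3%) and 47 of 51 chimera barcodes (92.2%) from 500 genes, and in none of the barcodes below. Among all other kept barcodes the same held for 19.4% in the SD rat and 28.0% in the chimera. The larger erythroid barcodes carried red cell and EC transcripts together. Scrublet, which looks for droplets with several cells, predicted 0 SD rat and 5 chimera erythroid barcodes as doublets. Myocyte markers were found in every erythroid barcode of both kinds and in 99.99% and 99.81% of other barcodes, so they set none apart.

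The species of the globin UMIs in the chimera was nearly always a single one. Of 95 erythroid barcodes, 59 had at least 99% of their globin UMIs on mouse rows and 33 had at most 1%. The 59 mouse-globin barcodes held 288360 mouse and 52 rat globin UMIs, and the 33 rat-globin barcodes 207721 rat and 17 mouse globin UMIs. Few counted globin UMIs of these barcodes therefore fell on the rows of the other species. Reads that match both species equally well cannot be judged from these counts. In 3 barcodes globin of both species was found, and mouse rows made up 1.36%, 19.7% and 43.5% of it. The barcode with 43.5% held 9439 mouse and 12287 rat globin UMIs among 31119 UMIs.

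The remaining UMIs of these barcodes followed the globin less closely. In the 59 mouse-globin barcodes the mouse share of UMIs outside globin ran from 7.29% to 97.5% with a median of 44.9%, and in the 33 rat-globin barcodes from 7.63% to 95.4% with a median of 25.7%. For the barcodes from 500 genes the medians were 28.5% (33 barcodes with mouse globin) and 16.3% (16 with rat globin). EC marker UMIs gave the same picture in these larger barcodes. Of 33 mouse-globin barcodes, 20 had more rat than mouse EC marker UMIs and 9 had more mouse, and of 16 rat-globin barcodes 11 had more rat and 5 more mouse. Mouse globin was thus found beside rat EC transcripts, and rat globin beside mouse EC transcripts. Below 500 genes, where EC markers were near 0, the medians were 61.3% (26 barcodes with mouse globin) and 28.7% (17 with rat globin). The mouse row Rn18s-rs5, for 18S ribosomal RNA, took 20.9% and 14.7% of UMIs outside globin in these small barcodes, and without it the medians were 47.3% and 16%.

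**Figure D2:**
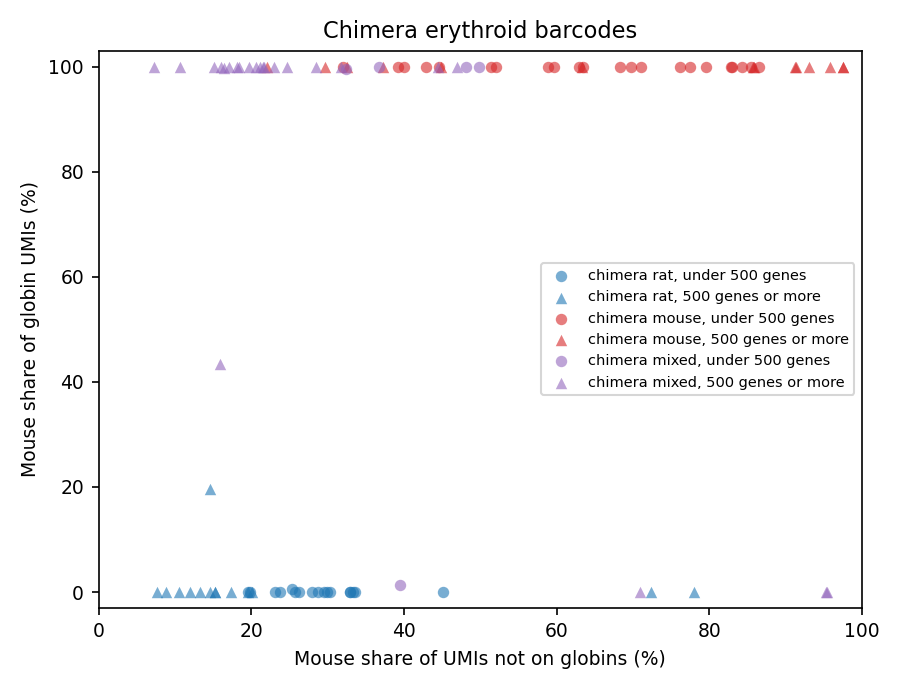
Each point is 1 of the 95 erythroid barcodes of the chimera, placed by the mouse share of its UMIs outside globin (x axis, percent) and of its globin UMIs (y axis, percent). Colour gives the species call and shape the number of genes, and all but a few points lie at the top or bottom edge while spreading from 7.29% to 97.5% along the x axis.

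These mixtures decide how many red cells are counted as mouse. By all UMIs, 31 erythroid barcodes were rat, 36 mouse and 28 mixed, and mouse barcodes made up 36 of the 67 with a species (53.7%, 41.1 to 66.0). Of the 28 mixed barcodes, 23 held mouse globin, 3 rat globin and 2 globin of both species. By globin alone, 59 of 92 were mouse (64.1%, 53.5 to 73.9). With globin UMIs left out of the species call the share was 39.5% (24.0 to 56.6). That call also rests on the EC transcripts of the larger barcodes. Among the other kept barcodes of the chimera, all classes pooled, 1824 of 10028 with a species were mouse (18.2%, 17.4 to 19.0). The mouse share was higher than this in erythroid barcodes under each of the 3 ways of counting. In clusters named from EC markers, 1087 barcodes were mouse and 715 rat, so a high mouse share was not particular to erythroid barcodes. Fewer cells of a type in the tissue and fewer of them left after lysis and sorting cannot be told apart in such shares.

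The alpha and beta chains were present in near-equal numbers of UMIs. These libraries capture the 3′ end of each transcript once, so UMIs were not divided by gene length. In the 67 SD rat erythroid barcodes Hba-a2, the alpha chain gene with a rat row, ran from 70 to 6857 UMIs with a median of 1134. Hbb-b1, the main beta chain row, ran from 53 to 7536 with a median of 1148. Both genes were found in all 67 barcodes, and the levels spread about as widely as the barcodes' total UMIs. In the 31 rat erythroid barcodes of the chimera Hba-a2 ran from 57 to 8835 UMIs (median 3137) and Hbb-b1 from 109 to 9854 (median 2831). Alpha UMIs were 50.4% of the rat globin UMIs in the SD rat (50.1 to 50.6, 189291 UMIs) and 50.8% in rat barcodes of the chimera (50.6 to 51.1, 189676 UMIs). Single barcodes varied more than this counting error: over the 64 SD rat barcodes with at least 200 globin UMIs the alpha share ran from 38.4% to 73.4%, with a median of 50.2%, and over 30 rat barcodes of the chimera from 42.6% to 69.9%, with a median of 51.5%. The lower and upper quartiles were 48.0% and 53.2% in the SD rat and 49.7% and 54.1% in the chimera.

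Hbb-bs, the other rat beta row, was close to empty. It had 8 UMIs in the SD rat library and 3 in the chimera library, against 119316 and 131560 for Hbb-b1. Near-identical globin copies can share reads, so the division between copies is uncertain. Whether reads shared between copies also changed the sum of a chain was not tested. Hba-a3, an alpha-like rat gene outside the listed names, had 1280 UMIs in the SD rat and 1636 in the chimera. It made up 1.04% of Hba-a2 and Hba-a3 UMIs in SD rat erythroid barcodes and 1.29% in rat-globin barcodes of the chimera.

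Mouse erythroid barcodes used 4 adult genes. In the 36 mouse barcodes of the chimera Hba-a1 ran from 133 to 5690 UMIs (median 1895.5) and Hba-a2 from 43 to 1821 (median 590), both alpha chain genes. Of the beta chain genes, Hbb-bs ran from 182 to 6328 (median 2545.5) and Hbb-bt from 0 to 1870 (median 360). All 36 barcodes held the first 3 genes, and 35 of 36 held Hbb-bt. Of the mouse globin UMIs Hbb-bs took 44.5%, Hba-a1 35.1%, Hba-a2 10.7% and Hbb-bt 9.63%, so each chain had a major and a minor row. Alpha UMIs were 45.8% of mouse globin (45.6 to 46.0, 204090 UMIs), lower than in rat by more than counting error. Each mouse chain was divided over a major and a minor row, unlike the rat chains. Whether reads shared between such copies changed the alpha share was not tested. Per barcode the share ran from 37.8% to 70.9% with a median of 46.8%, a range that overlaps those of the rat barcodes.

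The balance between the copies differed from barcode to barcode more for beta than for alpha. Over the mouse-globin barcodes Hba-a1 took 76.5% of alpha UMIs, from 68.5% to 84.4% in 57 barcodes with at least 100 alpha UMIs. Hbb-bs took 84.1% of beta UMIs, from 73.1% to 100.0% in 58 barcodes. Embryonic globins were almost absent. Hbe1 and Hbg1 of rat, and Hba-x, Hbb-y, Hbb-bh1 and Hbb-bh2 of mouse, had 0 UMIs in these libraries. Hbz had 1 UMI in the SD rat and Hbe2 had 1 in the chimera, and the theta globin Hbq1a of mouse had 18, of which 13 lay in erythroid barcodes.

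**Figure D3:**
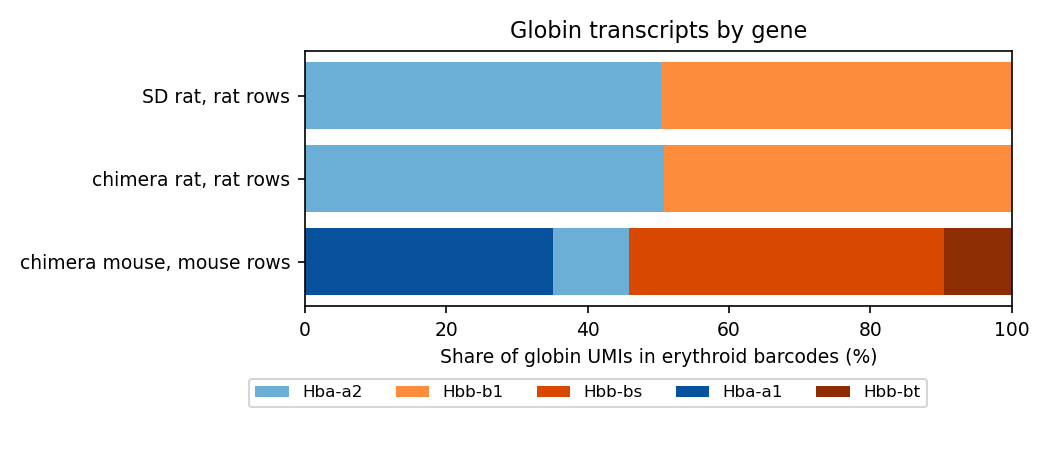
Bars give the share of globin UMIs (x axis, percent, from 0 to 100) by gene in the erythroid barcodes of the SD rat, and in the rat and the mouse erythroid barcodes of the chimera, each on the rows of its own species. Blue parts are alpha and orange to brown parts beta genes, with alpha at 50.4%, 50.8% and 45.8%.

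Alas2 was not used to choose the barcodes and was found almost solely where globin was. It had 422 UMIs in the SD rat library, of which 322 lay in erythroid barcodes. The rat row had 363 UMIs in the chimera library (307 in erythroid barcodes) and the mouse row 527 (393 in erythroid barcodes). At least 1 Alas2 UMI was found in 51 of 67 SD rat erythroid barcodes (76.1%, 64.1 to 85.7), 28 of 31 rat (90.3%, 74.2 to 98.0) and 34 of 36 mouse erythroid barcodes of the chimera (94.4%, 81.3 to 99.3). In the other kept barcodes the shares were 0.571%, 0.171% and 1.10%. Per 1e6 UMIs outside globin (CPM), Alas2 stood at 2094 CPM (1872 to 2336) in SD rat, 2966 (2611 to 3354) in chimera rat and 4047 (3581 to 4557) in chimera mouse erythroid barcodes, against 1.27, 0.456 and 2.82 CPM in the other barcodes.

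The species of Alas2 followed the species of globin without exception. The 33 rat-globin barcodes held 260 rat and 0 mouse Alas2 UMIs, and the 59 mouse-globin barcodes 376 mouse and 0 rat Alas2 UMIs. The barcodes with globin of both species held 47 rat and 17 mouse Alas2 UMIs. Barcodes from 500 genes held more Alas2 UMIs each than the small ones, with means of 7.54 against 3.28 in the SD rat, 12.6 against 4.47 in chimera rat and 10.5 against 5.73 in chimera mouse barcodes. In CPM the order was the other way round (1338 against 7641 in the SD rat), since the larger barcodes held many UMIs of other genes.

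Other genes of the red cell were then compared between erythroid and other kept barcodes of the same population, as CPM outside globin with 10 CPM added, over genes with at least 50 UMIs. At least 4-fold higher were 149 of 13288 genes in the SD rat (1.12%), 178 of 13485 in chimera rat (1.32%) and 78 of 11630 in chimera mouse barcodes (0.671%). After Hba-a3, the genes with the largest folds in the SD rat were Alas2 (187-fold), Alox15, a lipoxygenase of reticulocytes (116-fold), Lgals5, a rat galectin, and Car2, carbonic anhydrase (29.5-fold). In chimera rat barcodes they were Alas2 (285-fold), Alox15 (228-fold), Ahsp, which stabilises free alpha chains (109-fold), and Car2 (106-fold). In chimera mouse barcodes they included Alas2 (316-fold), Bpgm, which makes the regulator of oxygen affinity 2,3-bisphosphoglycerate (119-fold), Apol11b and Rec114. Alox15 had 190 UMIs in SD rat and 216 in chimera rat erythroid barcodes and 0 on its mouse row. Across the cell classes (erythroid barcodes as 1 class, 17 groups in each rat population and 12 in mouse), Alas2 was the gene of 10057 most like globin, with a mean Pearson r of 0.93, followed by Rsad2 (0.91), Gabarapl2 (0.89), Hoxa5 (0.85) and Rec114 (0.85). These correlations rest mainly on the erythroid group, and the groups of a population share 1 library.

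Of the listed heme synthesis enzymes, 2 of 9 were at least 4-fold higher in the SD rat and in chimera mouse barcodes (Alas2 and Fech, the last enzyme of the pathway) and 4 of 9 in chimera rat (Alas2, Fech, Urod and Alad). Fech was 9.19-fold, 21.2-fold and 15.4-fold higher in the SD rat, chimera rat and chimera mouse. The median log2 fold of the list was -0.07, 1.76 and 0.18 in that order, beside -0.15, -0.25 and -0.51 over all genes tested. Alas1, the form of the enzyme used by other cells, had no UMIs in the erythroid barcodes of the SD rat and of chimera rat. In chimera mouse erythroid barcodes Alas1 had 1 UMI and a fold of 0.993. In the other barcodes it stood at only 24.4 CPM in the SD rat and 22.96 CPM in chimera rat. Counts this low cannot show whether Alas1 was lower in erythroid barcodes. Of the iron genes, 0 of 8 were at least 4-fold higher in the SD rat, 1 of 8 in chimera rat (Slc25a38, a mitochondrial glycine carrier) and 1 of 8 in chimera mouse barcodes (Slc25a37, a mitochondrial iron importer, 21.9-fold). The medians were 0.42, 0.93 and -0.09. Slc25a38 had 5 UMIs in the chimera rat erythroid barcodes.

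Genes of red cell metabolism and organelle clearance moved most often. Of 14 tested, 5 were at least 4-fold higher in the SD rat, 9 in chimera rat and 6 in chimera mouse barcodes, with medians of 0.82, 2.33 and 1.80. Car2, Bpgm and Bnip3l, a receptor for the removal of mitochondria, were among those that passed in all 3 populations. In chimera mouse Car2 passed on 6 UMIs in 4 of 36 erythroid barcodes. Of the membrane genes tested, 1 of 7 passed in the SD rat (Aqp1), 5 of 9 in chimera rat (among them Slc4a1, Aqp1 and Epb41) and 1 of 4 in chimera mouse (Epb41), with medians of 0.78, 2.43 and 0.69. Aqp1 is a water channel of red cells and of ECs. With only the erythroid barcodes under 500 genes its fold went from 10.0 to 1.44 in the SD rat. It went from 7.01 to 5.78 in chimera rat and from 1.77 to 0.27 in chimera mouse. These small-barcode folds rest on 4, 3 and 1 Aqp1 UMIs. Of the factors and the chaperone, 3 genes were tested in the SD rat and 1 in chimera mouse, none of them 4-fold higher, and 5 in chimera rat, where Ahsp and Klf1 passed. The medians were -0.11, 1.51 and 0.98 in that order. Ahsp and Klf1 had 44 and 49 UMIs in the SD rat, under the 50 needed, and reached 127 and 56 in chimera rat with their erythroid UMIs, so these counts do not compare the animals. The same holds for Slc4a1 among the membrane genes, with 38 UMIs in the SD rat and 53 in chimera rat. Klf1, an erythroid transcription factor, had 2 UMIs in SD rat, 19 in chimera rat and 1 in chimera mouse erythroid barcodes. Ahsp had 36 UMIs in 14 of 67 SD rat and 96 UMIs in 18 of 31 chimera rat erythroid barcodes.

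EC genes were also among the genes at least 4-fold higher in the erythroid barcodes of both rat populations. Cdh5, an EC cadherin, was 9.79-fold higher in the SD rat, 6.21-fold in chimera rat and 2.09-fold in chimera mouse. In the barcodes under 500 genes its folds were 1.06, 0.13 and 0.20. In those small barcodes Cdh5 had 2, 0 and 1 UMIs, so these folds are imprecise. Alas2 rose to 679-fold, 910-fold and 1181-fold in those small barcodes. Of the hemoglobin scavenging genes, which macrophages use to take up hemoglobin and break down heme, 0 of 7 passed in the SD rat, 2 of 7 in chimera rat (Hmox1 and Cd163) and 1 of 6 in chimera mouse (Slc48a1), with medians of -0.26, 1.30 and -0.41. Hmox1 had 78 UMIs in chimera rat erythroid barcodes, of which 45 came from 1 barcode, and Cd163 had 11, of which 10 came from 1 barcode. Of the non-erythroid globins, myoglobin (Mb) and cytoglobin (Cygb), 0 of 2 were at least 4-fold higher in any population, with medians of -1.36, -1.08 and -0.46.

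Outside erythroid barcodes globin was mostly found at a few UMIs or none. In the SD rat 14.3% of these barcodes held 0 globin UMIs and 48.8% held 1 or 2, in chimera rat 48.7% and 42.1%, and in chimera mouse 47.4% and 42.3%. Among 8759 other kept SD rat barcodes 85.7% held at least 1 globin UMI, with a median of 2 and 628 CPM (622 to 634, of all UMIs). Among 8204 chimera rat barcodes the share was 51.3%, with a median of 1 and 376 CPM (372 to 381), and among 1824 chimera mouse barcodes 52.6%, with a median of 1 and 1225 CPM (1208 to 1242). After each barcode was thinned to 1000 UMIs, which left out 651, 78 and 69 shallower barcodes, globin was found in 33.8% of SD rat (32.8 to 34.9), 11.8% of chimera rat (11.1 to 12.5) and 15.7% of chimera mouse barcodes (14.1 to 17.5).

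A few barcodes decided the sums. Between 1% and 20% globin lay 48 SD rat, 21 chimera rat and 12 chimera mouse barcodes, and they held 51.3%, 65.6% and 88.2% of the background globin UMIs. Of these, 37, 16 and 11 were EC-like, a cluster name given from EC markers. Without them the background was 307 CPM in the SD rat, 130 in chimera rat and 147 in chimera mouse barcodes, so most of the difference between mouse and rat cells lay in 12 barcodes. The mean was then 2.31 globin UMIs per barcode in the SD rat (2.28 to 2.35), 1.25 in chimera rat (1.22 to 1.27) and 1.32 in chimera mouse (1.27 to 1.38).

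Rat and mouse globin were present side by side in chimera cells of either species. Below 1% globin, chimera rat barcodes held 0.83 rat and 0.42 mouse globin UMIs each and chimera mouse barcodes 0.71 and 0.61. The mouse share was 33.3% in rat barcodes (32.4 to 34.3) and 46.2% in mouse barcodes (44.1 to 48.2). This gap rested largely on 217 rat barcodes of a cluster led by major histocompatibility complex (MHC) class II genes, described below, which held 2586 of the 6805 rat globin UMIs. Without the clusters of this kind the shares were 44.0% (42.9 to 45.1) and 46.5% (44.4 to 48.5), with overlapping intervals. In barcodes with exactly 1 globin UMI that UMI was of mouse in 52.6% of 2523 rat barcodes (50.7 to 54.6) and in 54.3% of 556 mouse barcodes (50.1 to 58.5), so it did not differ with the species of the cell beyond counting error. In the erythroid barcodes of the chimera, mouse rows made up 56.5% of globin UMIs. In barcodes with 4 to 9 globin UMIs the mouse share was 20.7% in rat and 40.2% in mouse barcodes, and without the MHC class II-led clusters 24.0% (21.8 to 26.4) and 43.3% (38.2 to 48.5).

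Background globin UMIs per barcode differed between the cell classes. Below 1% globin, and leaving aside the clusters led by MHC class II genes described next, the means of 14 named SD rat classes ran from 0.84 (mast cell-like) to 2.85 (pericyte or mural-like) with a median of 2.24, while their median UMIs per barcode ran from 1851.5 (EC-like) to 13980 (cycling). In chimera rat the class means ran from 0.51 (mast cell-like) to 1.67 (EC-like), and in chimera mouse from 0.57 (neutrophil or monocyte-like) to 2.10 (FAP-like, fibro-adipogenic progenitors). In chimera rat the median UMIs per class ran from 3962 to 14110.5. In CPM the SD rat classes ran from 134 (mast cell-like) to 969 (EC-like). The FAP-like mouse barcodes held 1.74 mouse globin UMIs each against 0.36 rat, and 1 of the 125 barcodes held 180 globin UMIs.

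**Figure D4:**
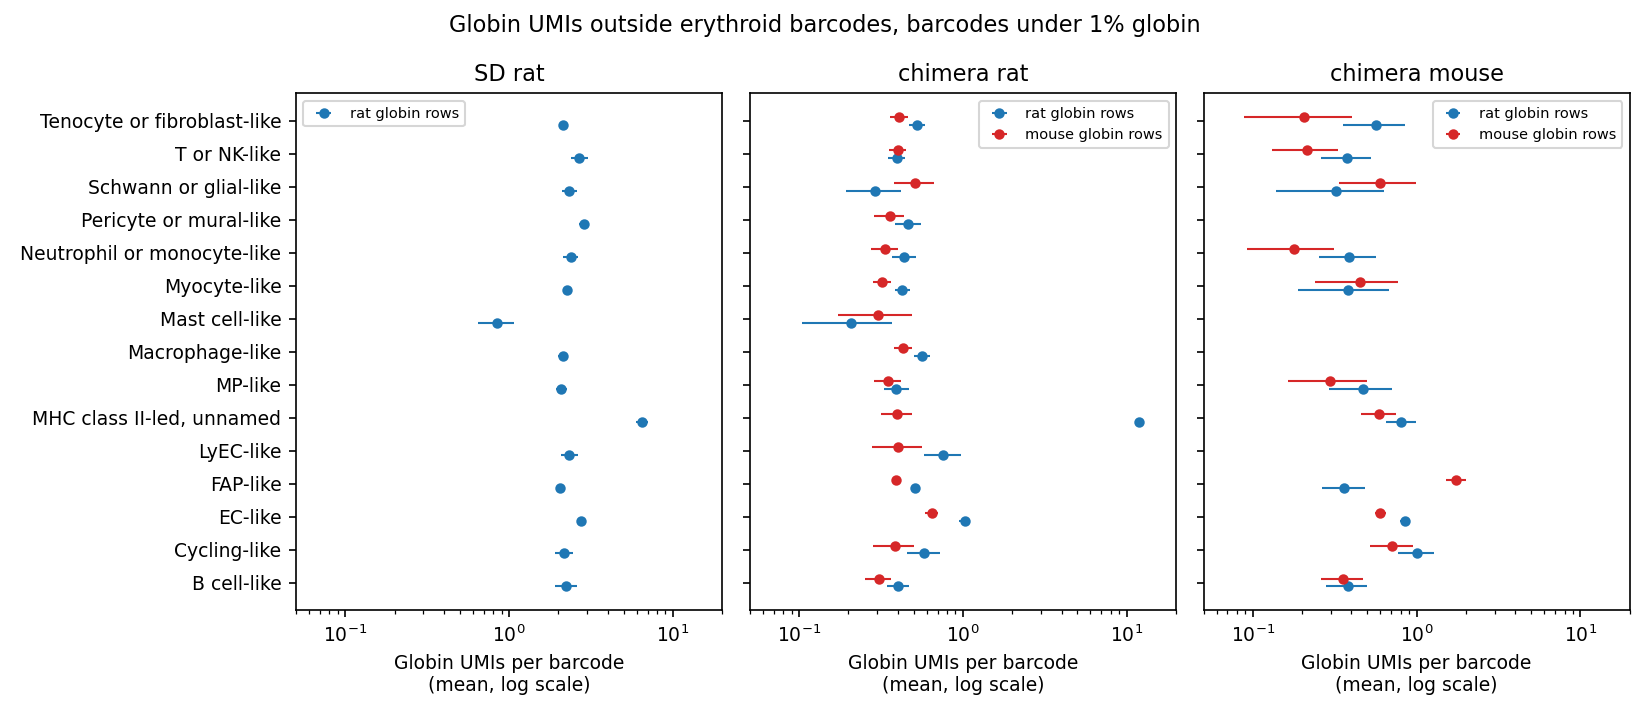
Points are mean globin UMIs per barcode (x axis, log scale) with exact 95% Poisson intervals, for each cell class of the SD rat, chimera rat and chimera mouse cells, with rat rows in blue and mouse rows in red, over barcodes under 1% globin. Most classes stand near 2.24 in the SD rat and near or below 1 in the chimera, while the MHC class II-led rat clusters stand at 6.48 and 11.9 on rat rows.

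Below 1% globin, 1 group of rat cells had the most alpha globin UMIs per barcode of the classes compared in both libraries. These clusters were led by MHC class II genes, which present antigen on dendritic cells, B cells and activated macrophages, and were left unnamed, since no marker of the class they scored highest for was among their leading genes. The SD rat cluster had 100 barcodes led by RT1-Da, RT1-Db1 and Cd74, and the chimera rat cluster 217 barcodes led by RT1-Db1, RT1-Da and Slpi, with Ccl17 in its top 10. Globin genes were left out of the genes used for clustering. Hba-a2 stood at 5.04 UMIs per barcode in the SD rat cluster (4.61 to 5.50) and at 9.64 in the chimera rat cluster (9.23 to 10.1). In all other barcodes under 1% globin it stood at 1.10 (1.08 to 1.12) and 0.27 (0.26 to 0.28). With barcodes from 1% globin kept, EC-like SD rat barcodes held 5.27 alpha UMIs each and the other unnamed chimera rat clusters 11.55. Hba-a2 was found in 85 of 100 and 184 of 217 barcodes, with medians of 3 and 5 and highest values of 45 and 58, and at least 5 UMIs were found in 33 and 119 barcodes, against 1.49% and 0.402% of the other barcodes. Hba-a2 was thus higher across many barcodes. These cells were deep, with medians of 11818.5 and 14456 UMIs, and in CPM Hba-a2 stood at 440 (402 to 480) and 629 (602 to 657). In the SD rat this lay within the range of the other classes, which ran from 51.9 in mast cell-like to 350 in B cell-like and 477 in EC-like barcodes. In chimera rat the highest other class, EC-like, had 82.8.

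Hbb-b1 was raised less than Hba-a2 in these cells. It stood at 1.44 UMIs per barcode in the SD rat cluster (1.21 to 1.70) against 1.16 in the other barcodes (1.14 to 1.19), and at 2.28 in the chimera rat cluster (2.08 to 2.49) against 0.26 (0.25 to 0.27). Part of this beta signal came from barcodes with almost the same counts. Pairs of barcodes in these clusters were compared over genes with at least 10 UMIs in the pair, and the chi-square per degree of freedom, which is near 1 for counts from 1 source, had a median of 9.99 in the SD rat and 8.33 in the chimera rat cluster. It was under 1.5 in 79 pairs of 16 SD rat barcodes and in 52 pairs of 14 chimera rat barcodes, and in no pair of the mouse clusters. The 14 chimera rat barcodes held 33 to 58 Hba-a2 and 21 to 44 Hbb-b1 UMIs each. Such barcodes differ by about the sampling noise, and whether they are separate cells was not tested.

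Without these barcodes Hba-a2 stood at 5.40 (4.92 to 5.93) in 84 SD rat barcodes and 7.60 (7.22 to 7.98) in 203 chimera rat barcodes. Hbb-b1 stood at 1.10 (0.88 to 1.34) and 0.29 (0.22 to 0.37), at the level of the other barcodes. The alpha share of rat globin was then 83.2% (79.7 to 86.2) and 96.3% (95.3 to 97.2), while over the other clusters with at least 50 globin UMIs it ran from 38.7% to 56.0% in the SD rat and from 37.8% to 75% in chimera rat. The 75% belonged to an unnamed chimera rat cluster of 86 barcodes, led by Lyz2 and Il1b. RT1-Da and RT1-Db1 were also among its leading genes. It held 45 alpha and 15 beta UMIs, or 0.52 and 0.17 per barcode, so its globin leaned to alpha too. In the MHC class II-led clusters Alas2 had 0 UMIs in the SD rat and 2 in chimera rat, and Hba-a3 had 1 and 2. Mouse globin, counted in the same chimera rat barcodes, stood at 0.40 UMIs per barcode (0.32 to 0.49), within the range of the other rat classes (0.30 to 0.65). These barcodes held more Hba-a2 UMIs each than other rat cells under 1% globin. Hbb-b1 and mouse globin were within counting error or the range found there.

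The mouse clusters led by MHC class II genes (114 barcodes, led by Cd74 and H2 genes) did not show a raised alpha level. Their alpha share of mouse globin was 59.7% (47.0 to 71.5), on 67 UMIs. Over the other mouse clusters with at least 50 globin UMIs it ran from 42.1% to 63.5%. Hba-a1 and Hba-a2 of mouse stood at 0.25 and 0.11 UMIs per barcode (0.16 to 0.36 and 0.05 to 0.18) and rat Hba-a2 at 0.39 (0.29 to 0.53), against 0.22, 0.06 and 0.34 in the other mouse barcodes. Macrophage-like rat barcodes stood at 1.08 Hba-a2 and 1.05 Hbb-b1 UMIs in the SD rat and at 0.33 and 0.23 in the chimera. The contrast of alpha with beta globin was described after the values had been seen, and both rat clusters come from 1 animal each.

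**Figure D5:**
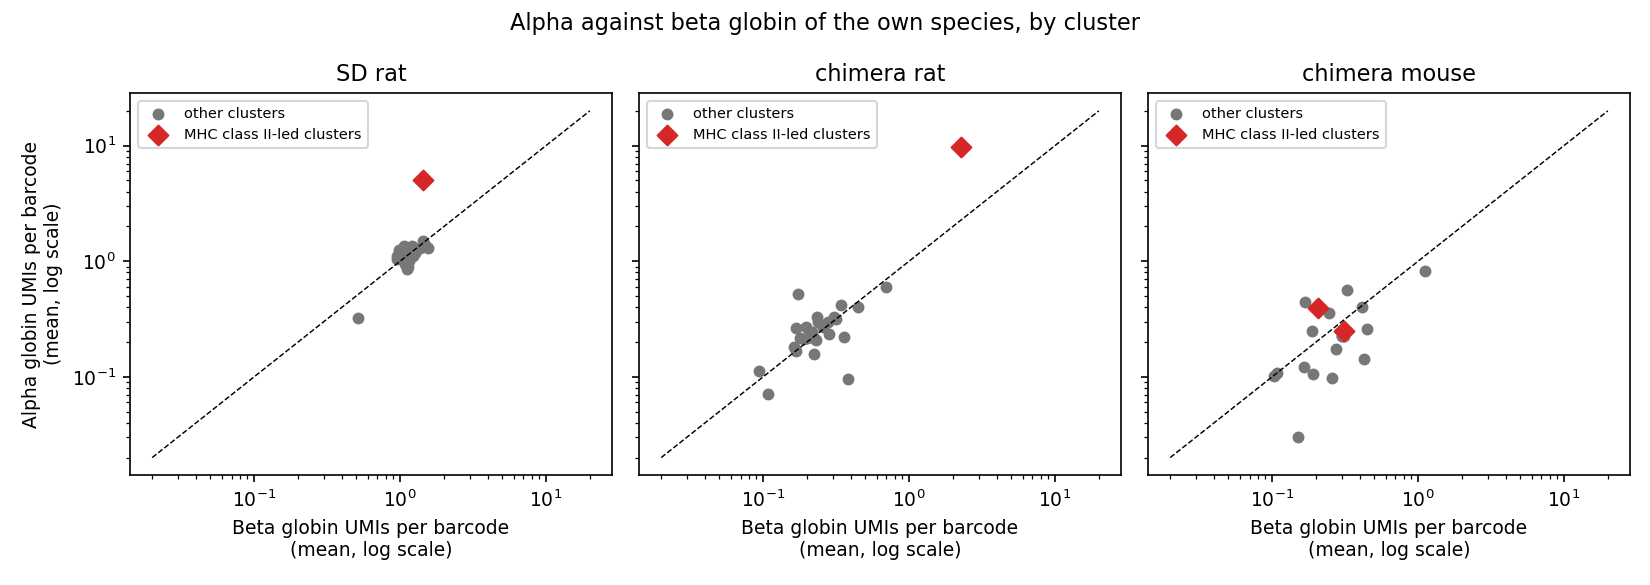
Each point is 1 cluster, placed by its mean beta (x axis) and alpha (y axis) globin UMIs per barcode on the rows of its own species, both log scales, for barcodes under 1% globin. Most clusters lie along the dashed line of equal counts, and the MHC class II-led rat clusters (red diamonds) lie above it, at 5.04 alpha to 1.44 beta UMIs in the SD rat and 9.64 to 2.28 in chimera rat, before barcodes with near-identical counts were left out.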

How the data were processed

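Transcripts of single muscle cells were counted with a 10x Genomics 3′ kit (v3.1), in 1 library of the chimera and 1 of the SD rat. The authors deposited whole-number UMI counts, made with Cell Ranger 7.1.0 and not normalized. Per the submitters' processing notes the builds were mRatBN7.2 and GRCm39. The chimera reads were mapped to both species, so a rat read can fall on a mouse row only there. The members and gene lists were chosen with earlier results of these data known.

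Filters on other barcodes required 500 UMIs, 200 genes and no more than 20% of UMIs on 13 mitochondrial protein genes per species, and doublets predicted by Scrublet in scanpy 1.11.5 (expected rate 8%) were removed. This left 8816 SD rat and 11730 chimera barcodes. Each population was clustered on own-species genes (2000 variable genes without globins and mitochondrial genes, 30 components, 15 neighbours, leidenalg 0.10.2, resolution 1). Clusters were named from marker lists of 15 classes, by a rule set after clusters had been seen, and a difference from the cell types of the study may lie in these rebuilt names. Erythroid barcodes were taken from all deposited barcodes and kept out of the clustering. Depth was 500 UMIs or more per barcode, with medians of 5373 (SD rat) and 7407 (chimera).

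With 1 library per group no test was run. Genes were named by the 5 largest folds per population, by the 5 highest mean correlations with globin, and from fixed lists, and some genes these rules name are not reported here. The fold step was tested on simulated data. Alternatives were other globin, species and UMI limits, doublets kept, other resolutions, pseudocounts and gene minimums, and 5 chosen after seeing the data.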

Additional observations from a re-analysis of the deposited data

How the results depend on the processing

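No paired analysis was possible because each group had 1 library, and for the same reason no replicate could be left out. A value is given here where it left the 95% counting interval of the reported value, or, for counts of genes, moved by over 1.5 times. Most intervals are narrow, since they rest on many UMIs. Of 136 values, 72 stayed within these bounds. The values are shares, levels and counts of genes, which have no direction to reverse. The mouse share of chimera erythroid barcodes went from 53.7% to 48.9% with species limits of 90% and 10%. It was 46.9% with erythroid barcodes required to pass the filters, both within its counting interval. The chimera mouse background lay above the SD rat one (1225 against 628 CPM), but below it without barcodes from 1% globin (147 against 307). The cause of the shifts was not tested, apart from those that follow from which barcodes or genes enter.

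With erythroid barcodes called from 10% globin, the background was 445 CPM in the SD rat and 216 in chimera rat, the mouse share of background globin in chimera rat was 42.9%, mouse rows made up 56.2% of erythroid globin, and the chimera rat alpha share was 50.6%. From 50% globin, 0.356% of SD rat and 0.496% of chimera barcodes were erythroid, with 55.7% mouse globin. The background was then 1680, 758 and 1696 CPM in SD rat, chimera rat and chimera mouse, with mouse shares of 20.9% and 94.2% in the chimera, and 284 SD rat and 151 chimera mouse genes were at least 4-fold higher. With species limits of 90% and 10%, the background was 501 CPM in chimera rat (7.63% mouse) and 1036 in chimera mouse (90.4% mouse), and the chimera mouse alpha share was 45.01%. With 70% and 30% it was 560 (36.4% mouse) and 1619 CPM (90.6% mouse). The species call without globin UMIs gave 39.5% mouse among erythroid barcodes, alpha shares of 49.7% (chimera rat) and 44.6% (chimera mouse), and backgrounds of 461 (45.4% mouse) and 1261 CPM (89.3% mouse). Without Rn18s-rs5 it gave 513 CPM (30.6% mouse) in chimera rat and an alpha share of 45.5% in chimera mouse. With erythroid barcodes required to pass the filters, mouse globin was 55.1% and 129 chimera mouse genes were at least 4-fold higher. With at least 1000 UMIs, 0.505% of SD rat barcodes were erythroid and the background was 605 CPM. With predicted doublets kept, the background was 655, 363 and 1490 CPM, with 93.4% mouse in chimera mouse. With a pseudocount of 1 CPM, 486, 573 and 200 genes were at least 4-fold higher in SD rat, chimera rat and chimera mouse, and with 50 CPM 46, 57 and 31.

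A further 5 alternatives were chosen after seeing the data, of which leaving out near-identical barcodes is given in the report. Without barcodes from 1% globin, the background was 307, 130 and 147 CPM, with 46.2% mouse in chimera mouse. Without the MHC class II-led clusters, it was 357 CPM in chimera rat (36.1% mouse) and 1369 in chimera mouse (92.3% mouse). With erythroid barcodes assigned by globin, the chimera rat alpha share was 50.6%. With erythroid barcodes under 500 genes alone, mouse globin was 63.3%, the alpha shares were 50.1%, 52.9% and 44.8%, and 321, 422 and 242 genes were at least 4-fold higher in SD rat, chimera rat and chimera mouse. The MHC class II-led cluster of chimera rat kept 7.63 Hba-a2 UMIs per barcode at resolution 0.5 and 9.66 at resolution 2, and the SD rat one 4.95 at resolution 2, while at 0.5 no such SD rat cluster formed.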
